A study of Homo sapiens with 4 samples.

Results

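The genes that fold, modify, transport and degrade proteins of the endoplasmic reticulum (ER), together with the sensors of the unfolded protein response, were examined in 2 melanoma cell lines after knockdown of the long noncoding RNA LINC00622. The set was named gene by gene and not by a rule on measured values. Earlier results of these data were known when it was chosen. Of 33 genes named, 32 have a row in the table of 17755 genes, and DERL3 was not analysed here. SK-MEL-28 and A375, established human melanoma cell lines, were each given siRNA against LINC00622 (siLINC00622) or control siRNA (siNC) with a transfection reagent, kept for 6 h in DMEM without serum, and then kept for 24 h in DMEM with 10% serum. Every condition is 1 poly(A) RNA-Seq library of 1 line, so there are 4 libraries and no replicate within a condition.

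Secreted and membrane proteins enter the ER through the Sec61 channel, and there the chaperones of the HSP70 and HSP90 families, their J-domain partners, the disulphide isomerases and the sugar-binding chaperones calnexin and calreticulin fold them. When unfolded proteins build up, the membrane sensors IRE1 (ERN1), PERK (EIF2AK3) and ATF6 are released or activated. IRE1 then splices the XBP1 mRNA, PERK slows translation and raises ATF4, and ATF6 is cut to free a transcription factor. ATF6 and spliced XBP1 raise the genes of folding and of ER-associated degradation, through promoter elements that join an NF-Y site (CCAAT) to a site for ATF6 or XBP1 (CCACG). Pigment cells carry a heavy load of secretory cargo, because melanosome proteins are glycoproteins made in the ER.

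The genes were named in part as targets of the ATF6 and XBP1 branches, which act through such elements, so how often the elements occur among them describes that choice and is not a result. RefSeq windows of GRCh38.p14, from 250 bases before to 50 bases after each annotated start, were searched on both strands. A window was found for 29 of the 33 genes, with 36 starts in all, and there was none for PDIA3, SEC24D, DERL1 and DERL3. The ER stress response element (ERSE: CCAAT, any 9 bases, CCACG) was found in 10 of these 36 starts, which is 27.8%, against 0.0769% of all 35116 starts. The 10 starts belong to 8 genes (HSPA5, HSP90B1, PDIA6, ERO1B, CRELD2, CALR, CANX and XBP1) and hold 9 distinct sites, because the 3 overlapping windows of CANX share 1 site. The related ERSE-II (ATTGG, any 1 base, CCACG) was found in 3 starts, those of HYOU1, HERPUD1 and SDF2L1, with 4 distinct sites, and in 0.0541% of all starts. The shorter element TGACGTGG, bound by XBP1, was found at DNAJC10 and HYOU1 and in 0.729% of all starts. At HYOU1 it overlaps the ERSE-II that lies farther from the start. TTGCATCA, an element of the ATF4 type, was found at HERPUD1 alone among these genes and in 0.866% of all starts. A match describes the letters of the window, and no match says only that these letters are not there.

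The sequences around the elements of 7 genes are given 5′ to 3′ along the gene's own strand, for HSPA5 up to the base before the annotated start and for the others as a shorter stretch around the element, with the ERSE or ERSE-II in capitals on whichever strand it was found. HSPA5, XBP1, CRELD2 and HSP90B1 show the ERSE, and SDF2L1, HERPUD1 and HYOU1 the ERSE-II. They are shown because genes with the same element differed in their ratio, as given below.
HSPA5, chr9:125241344-125241593, strand -: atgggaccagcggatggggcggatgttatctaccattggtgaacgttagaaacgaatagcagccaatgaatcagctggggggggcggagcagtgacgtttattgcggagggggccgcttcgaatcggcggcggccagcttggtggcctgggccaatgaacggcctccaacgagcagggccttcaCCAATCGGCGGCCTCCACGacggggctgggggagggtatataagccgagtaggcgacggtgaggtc
XBP1, chr22:28800583-28800641, strand -: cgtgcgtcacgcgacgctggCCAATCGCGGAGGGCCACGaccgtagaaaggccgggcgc
CRELD2, chr22:49918534-49918592, strand +: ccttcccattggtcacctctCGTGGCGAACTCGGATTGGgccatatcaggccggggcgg
HSP90B1, chr12:103930196-103930359, strand +: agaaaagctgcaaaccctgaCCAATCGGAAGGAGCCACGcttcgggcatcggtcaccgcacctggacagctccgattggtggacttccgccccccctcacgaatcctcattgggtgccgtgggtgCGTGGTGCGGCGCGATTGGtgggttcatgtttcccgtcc
SDF2L1, chr22:21642094-21642144, strand +: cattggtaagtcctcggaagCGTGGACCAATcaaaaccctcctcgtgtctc
HERPUD1, chr16:56932005-56932055, strand +: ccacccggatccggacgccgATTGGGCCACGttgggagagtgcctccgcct
HYOU1, chr11:119057254-119057410, strand -: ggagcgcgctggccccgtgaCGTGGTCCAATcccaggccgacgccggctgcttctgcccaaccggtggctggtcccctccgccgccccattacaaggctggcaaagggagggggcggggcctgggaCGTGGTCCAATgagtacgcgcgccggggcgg

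HSPA5 and XBP1 carry the same orientation of the ERSE close to the start, with the element between -66 and -48 at HSPA5 and between -52 and -34 at XBP1 (position 0 is the first transcribed base). HSP90B1 and HYOU1 each carry a pair of sites.

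**Figure D1:**
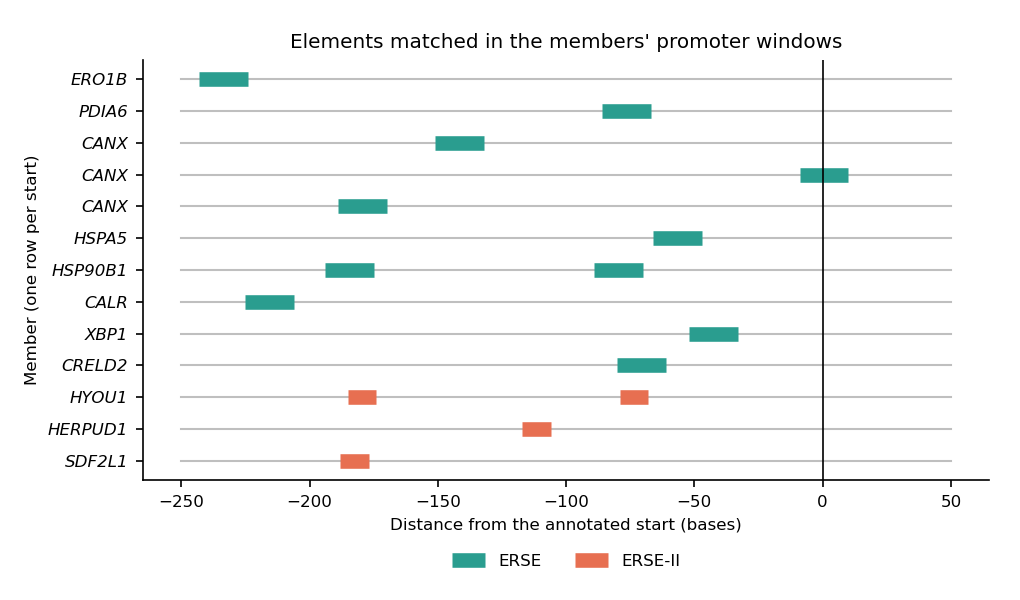
Positions of the ERSE (green) and the ERSE-II (orange) in the promoter windows, in bases from the annotated start on the x axis, with 1 row per start that holds an element. The 13 starts with an element belong to 11 genes, and the HSPA5, XBP1 and CRELD2 elements lie within the last 80 bases before the start.

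Library totals ran from 31269923 to 36384819 counts, with 99.7% to 99.8% on the listed genes. LINC00622, the targeted RNA, had 309 counts with siNC against 135 with siLINC00622 in SK-MEL-28 cells and 135 and 86 in A375, which are log2 ratios of -1.21 and -0.84. Its paired log2 fold change of -1.05 ± 0.20 (SE) had an edgeR adjusted p of 0.113. The labels name melanoma tissue as the source of cultured lines. The melanocyte marker SOX10 was high in both lines, with FPKM between 118 and 153. Other markers of that lineage were much lower in A375. MITF had FPKM of 80.1 and 74.9 in SK-MEL-28 (siNC, then siLINC00622) against 5.29 and 4.95 in A375, and S100B 147 and 96.8 against 5.54 and 8.40. The pigment markers MLANA, TYR and DCT were at FPKM 104 or above in SK-MEL-28 and at or below 0.982 in A375. PMEL had FPKM of 940 and 1134 in SK-MEL-28 against 2.24 and 2.35 in A375, and TYRP1 was low in both lines, at 0.744 and 0.956 in SK-MEL-28 against 0.111 and 0.0441 in A375. Of 16 markers of keratinocytes, fibroblasts, endothelial cells and leukocytes, 3 are listed. KRT10 (1361 to 2069 counts) and LUM (187 to 892 counts) were present in every library, and KRT14 had 494 and 504 counts in A375 against 6 and 2 in SK-MEL-28. The part of these cell states in the differences below was not tested.

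The 32 genes took 0.775% of all counts with siNC against 0.838% with siLINC00622 in SK-MEL-28 cells, and 0.658% and 0.713% in A375. Levels are compared between genes only as FPKM, that is, per length and library size. By the deposited FPKM the calcium-binding lectin chaperone CALR was the highest in every library, with 356 and 372 in SK-MEL-28 (siNC, then siLINC00622) and 339 and 358 in A375. CANX, the membrane-bound lectin chaperone, HSPA5 (BiP, the main HSP70 of the ER), and SEC61A1, the channel subunit, were among the 5 highest in every library. Of the 32 genes, 11 or 12 were among the 1000 highest of the 17755 genes in each library. This count used the deposited FPKM and was not repeated with another gene length. At the other end stood the sensors ERN1 and EIF2AK3. ERN1 had FPKM of 0.613 and 0.697 in SK-MEL-28 against 0.471 and 0.436 in A375, the lowest in each library. EIF2AK3 lay between 0.627 and 1.34. The sensor ATF6 lay between 5.16 and 6.46, above only ERN1, ERO1B and EIF2AK3 in SK-MEL-28. In A375 it was also above DNAJC10, DNAJB11, CRELD2 and SEC24D in both libraries, and above DNAJB9 with siLINC00622. ERO1B, an oxidase that passes electrons from the disulphide isomerases to oxygen, lay between 0.929 and 3.97.

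The lengths behind the deposited FPKM are not those of a single transcript, and their ratio to the longest GENCODE 29 transcript had a median of 1.44 and ran from 0.935 (DNAJB9) to 4.45 (EIF2AK3). For 15 of the 32 genes it was over 1.5. With the longest transcript as the length, CALR stayed the highest, and CANX, HSP90B1, HSPA5 and P4HB were the other genes among the 5 highest in every library. The place of HSP90B1 and P4HB among the most abundant genes thus depended on the length used, and the low level of ERN1 did not, although ERO1B was lower than ERN1 in SK-MEL-28 by the longest transcript. On that scale ERN1 lay between 1.06 and 1.69 CPM per kilobase, against 499 to 548 for CALR.

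**Figure D2:**
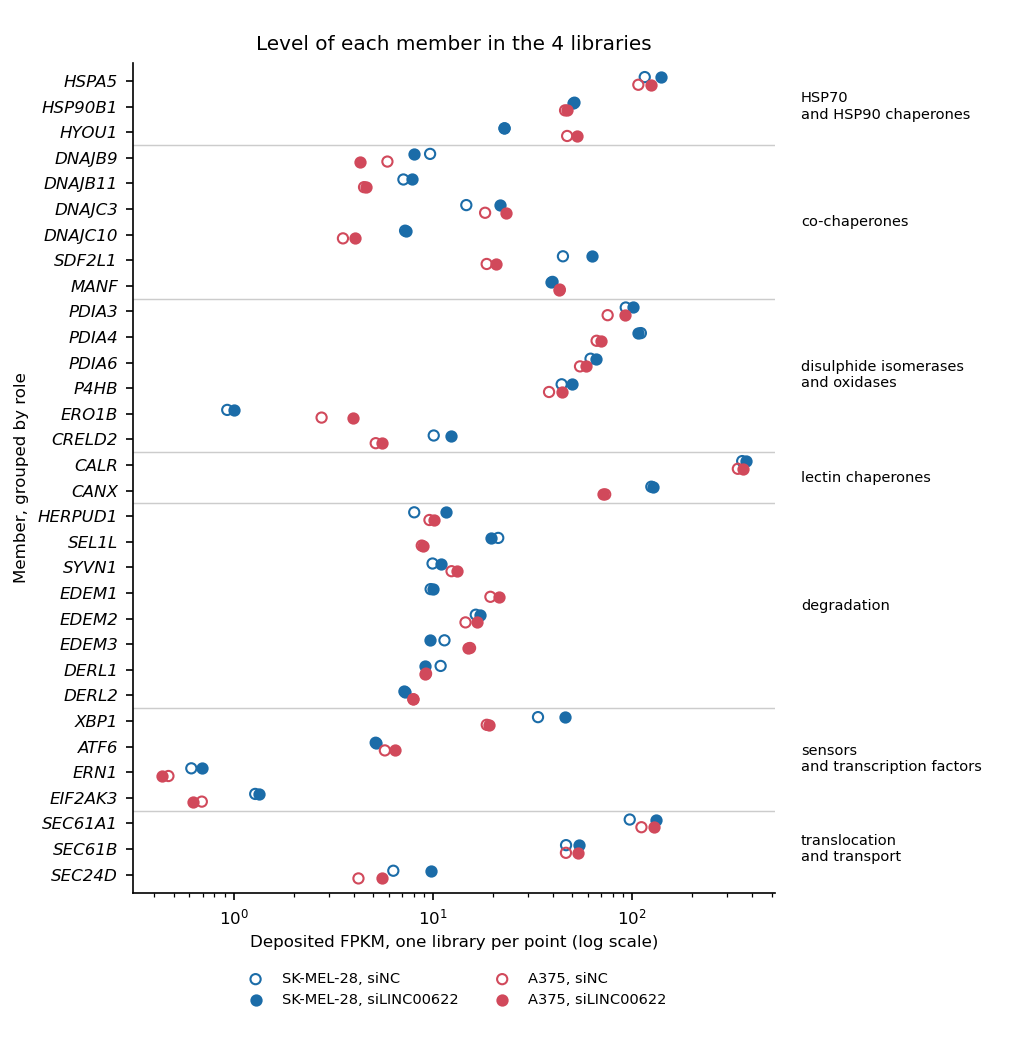
Deposited FPKM on a logarithmic x axis for the 32 genes, grouped by role, with 1 point per library (open, siNC; filled, siLINC00622; blue, SK-MEL-28; red, A375). CALR lies highest, at 339 to 372, ERN1 lowest, at 0.436 to 0.697, and the lines lie apart for XBP1, SDF2L1 and HYOU1.

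The first question is how these genes differed between siLINC00622 and siNC within each line. Ratios are log2 ratios of siLINC00622 over siNC from counts scaled by TMM within a line, with a prior count of 2. The ranges in parentheses are 95% Clopper-Pearson intervals, which cover counting error only. The median ratio of the 32 genes was 0.09 in SK-MEL-28 cells and 0.10 in A375, against 0.00 over all genes with at least 10 counts in either line. The ratio was above 0 for 25 genes in SK-MEL-28 and for 26 in A375, against 49.5% and 50.7% of all genes. The counting interval lay above 0 for 16 genes and below 0 for 5 in SK-MEL-28, and for 19 and 2 in A375, where all genes gave 22.9% above and 24.0% below 0 in SK-MEL-28, and 23.8% above and 22.0% below 0 in A375. Genes with many counts have narrow intervals. In bulk libraries, fewer cells that express a gene and less of its RNA per cell cannot be told apart.

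The differences were small. In SK-MEL-28, 1 of the 32 genes was over 1.5-fold higher and 0 were over 1.5-fold lower, where 4.56% of 15442 genes were higher and 6.49% lower by that rule. In A375, 0 were over 1.5-fold in either direction, where 4.52% of 16021 genes were higher and 4.34% lower. With a fold of 1.2, 8 genes were higher in SK-MEL-28, which is 25.0% of them against 17.1% of all genes, and 0 were lower, against 19.8% of all genes. In A375 the 1.2-fold rule counted 4 genes as higher, 12.5% against 17.3% of all genes, and 1 as lower, against 17% of all genes. These shares describe 1 pair of libraries each. The plot of ratios by gene shows 11 genes with both intervals above 0 and 1, DNAJB9, with both below 0. Among the 14721 genes with enough counts in each line, 10.96% had both intervals above 0 and 11.85% had both below 0.

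**Figure D3:**
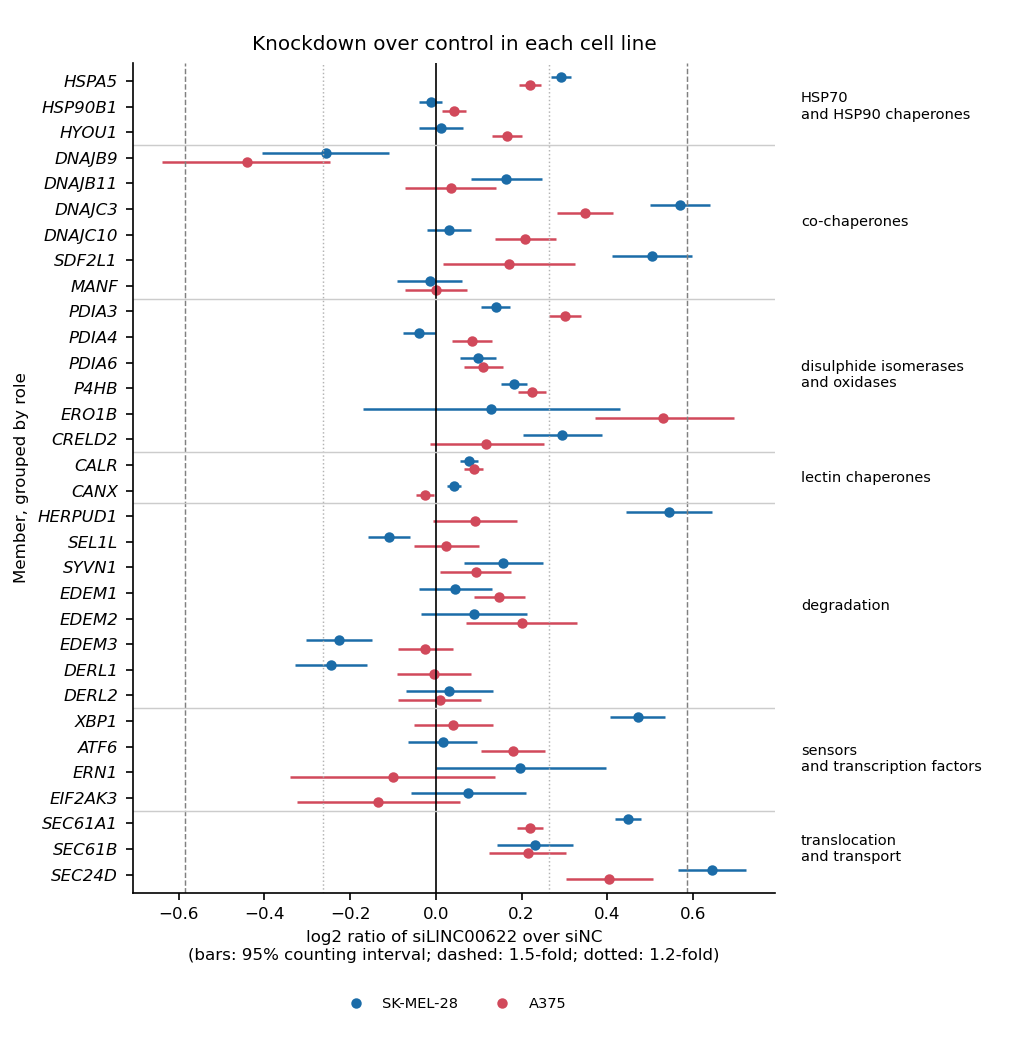
Log2 ratio of siLINC00622 over siNC on the x axis for each gene, in SK-MEL-28 (blue) and A375 (red), with the 95% counting interval as a bar and 1.5-fold and 1.2-fold as dashed and dotted lines. SEC24D in SK-MEL-28 (0.64) is the 1 point beyond 1.5-fold, and DNAJB9 lies lowest in both lines.

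Among the HSP70 and HSP90 chaperones, the ratio of HSPA5 stood apart from that of HSP90B1. HSPA5, which holds unfolded chains and keeps the sensors inactive, had 24971 counts with siNC against 31253 with siLINC00622 in SK-MEL-28 cells, and 21900 and 29477 in A375. Its ratio was 0.29 (0.27 to 0.32) in SK-MEL-28 cells and 0.22 (0.19 to 0.24) in A375. It was higher with siLINC00622 in both lines, at percentiles 84.7 and 79.1 of the ratios of all genes. HSP90B1 (GRP94), the HSP90 of the ER, had 22235 and 22532 counts in SK-MEL-28 cells and 18836 and 22436 in A375, with ratios of -0.01 (-0.04 to 0.01) and 0.04 (0.01 to 0.07). The 2 genes can be set against each other without any scaling. HSPA5 had 1.12 counts per HSP90B1 count with siNC against 1.39 with siLINC00622 in SK-MEL-28 cells, and 1.16 and 1.31 in A375. HYOU1 (GRP170), the nucleotide exchange factor of HSPA5, had ratios of 0.01 (-0.04 to 0.06) in SK-MEL-28 cells and 0.17 (0.13 to 0.20) in A375.

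The co-chaperones held the lowest ratio of the whole set and some of the highest. DNAJB9 (ERdj4), a J-domain partner of HSPA5 that acts on IRE1 and is known as a target of spliced XBP1, had 813 counts with siNC against 695 with siLINC00622 in SK-MEL-28 cells, and 469 and 399 in A375. Its ratio was -0.26 (-0.41 to -0.11) in SK-MEL-28 cells and -0.44 (-0.64 to -0.25) in A375, lower with siLINC00622 in both and the lowest of the 32 genes in each line. DNAJC3 (p58IPK), a J-domain protein that also restrains PERK, had 2721 and 4126 counts in SK-MEL-28 cells and 3193 and 4703 in A375. Its ratio was 0.57 (0.50 to 0.64) in SK-MEL-28 cells and 0.35 (0.28 to 0.41) in A375, at percentiles 95.1 and 88.1 of all genes. There were 3.35 counts of DNAJC3 per count of DNAJB9 with siNC against 5.94 with siLINC00622 in SK-MEL-28 cells, and 6.81 and 11.8 in A375, higher with siLINC00622 in both lines. SDF2L1, a partner of the J-domain protein DNAJB11, had 1574 and 2282 counts in SK-MEL-28, a ratio of 0.50 (0.41 to 0.60), and 616 and 802 in A375, a ratio of 0.17 (0.02 to 0.32). DNAJB11 was at 0.16 (0.08 to 0.25) and 0.03 (-0.07 to 0.14), and DNAJC10 at 0.03 (-0.02 to 0.08) and 0.21 (0.14 to 0.28), in SK-MEL-28 and A375. MANF, a secreted cofactor of HSPA5, was at -0.01 and 0.00.

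The disulphide isomerases and oxidases had a median ratio of 0.13 in SK-MEL-28 cells and 0.17 in A375, and the ratio was above 0 for 5 and 6 of the 6 genes. PDIA3 (ERp57), the partner of the lectin chaperones, had 12960 and 14594 counts in SK-MEL-28 cells and 9930 and 14148 in A375, with ratios of 0.14 (0.11 to 0.17) and 0.30 (0.26 to 0.34). The processed pseudogene PDIA3P1 had between 556 and 788 counts, so reads that the counting placed on one of the pair may come from the other. ERO1B had 178 and 199 counts in SK-MEL-28, a ratio of 0.13 (-0.17 to 0.43), and 500 and 836 in A375, a ratio of 0.53 (0.37 to 0.69) and the highest of the set in that line. P4HB (PDI) was at 0.18 and 0.22 and PDIA6 at 0.10 and 0.11, nearly the same in both lines. PDIA4 had 12058 and 11993 counts in SK-MEL-28, a ratio of -0.04 (-0.076 to -0.0025), and 6829 and 8377 in A375, a ratio of 0.09 (0.04 to 0.13), so its direction differed between the lines. CRELD2, an ER protein known to rise under ER stress, was at 0.30 (0.20 to 0.39) and 0.12 (-0.01 to 0.25).

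The ratios of the lectin chaperones lay close to 0. CALR had 33029 and 35607 counts in SK-MEL-28 cells and 29670 and 36468 in A375, with ratios of 0.08 (0.06 to 0.10) and 0.09 (0.07 to 0.11). CANX had 56794 and 59785 counts in SK-MEL-28, a ratio of 0.04 (0.03 to 0.06), and 31480 and 35770 in A375, a ratio of -0.03 (-0.047 to -0.0033). These values are so well counted that their intervals leave 0, yet they differ by a few percent between libraries of which there is 1 per condition.

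The degradation genes had a median ratio of 0.04 in SK-MEL-28 cells and 0.06 in A375. HERPUD1, which gathers the ubiquitin ligase complex that clears ER proteins, had 1350 counts with siNC against 2011 with siLINC00622 in SK-MEL-28, a ratio of 0.54 (0.44 to 0.64). In A375 it had 1520 and 1873 counts, a ratio of 0.09 (-0.01 to 0.19). SYVN1 (HRD1), the ligase of that complex, was at 0.16 and 0.09, and its partner SEL1L at -0.11 (-0.16 to -0.06) and 0.02 (-0.05 to 0.10). DERL1, a channel protein for retrotranslocation, was at -0.24 (-0.33 to -0.16) in SK-MEL-28 cells and 0.00 (-0.09 to 0.08) in A375, and DERL2 at 0.03 and 0.01. The mannosidase-related EDEM genes, which mark glycoproteins for disposal, did not share a direction in SK-MEL-28. EDEM3 was at -0.23 (-0.30 to -0.15) there, EDEM1 at 0.05 and EDEM2 at 0.09. In A375 EDEM1 was at 0.15, EDEM2 at 0.20 and EDEM3 at -0.02.

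Among the sensors and the transcription factor, XBP1 differed most between the lines. XBP1 had 3374 counts with siNC against 4780 with siLINC00622 in SK-MEL-28 cells, and 1763 and 2097 in A375. Its ratio was 0.47 (0.41 to 0.54) in SK-MEL-28, at percentile 92.5, and 0.04 (-0.05 to 0.13) in A375. The table counts reads per gene and does not separate spliced from unspliced XBP1 mRNA. ATF6 had 2437 and 2518 counts in SK-MEL-28, a ratio of 0.02 (-0.07 to 0.10), and 2559 and 3352 in A375, a ratio of 0.18 (0.11 to 0.25). ERN1 had 389 and 456 counts in SK-MEL-28, a ratio of 0.20 (-0.00037 to 0.40), and 282 and 304 in A375, a ratio of -0.10 (-0.34 to 0.14). EIF2AK3 had 879 and 947 counts in SK-MEL-28, a ratio of 0.08 (-0.06 to 0.21), and 448 and 472 in A375, a ratio of -0.13 (-0.32 to 0.06). For the kinase sensors ERN1 and EIF2AK3, a difference was not detectable at this depth in either line.

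The genes of translocation and transport had the highest median ratios of the 7 roles, 0.45 in SK-MEL-28 cells and 0.22 in A375, and all 3 had both intervals above 0. SEC24D, a cargo-binding subunit of the COPII coat that carries proteins out of the ER, had 2078 counts with siNC against 3318 with siLINC00622 in SK-MEL-28 cells, and 1312 and 2009 in A375. Its ratio was 0.64 (0.56 to 0.72) in SK-MEL-28 cells and 0.40 (0.30 to 0.51) in A375, at percentiles 96.3 and 90.6 of all genes. SEC61A1 had 14918 and 20788 counts in SK-MEL-28 cells and 16128 and 21723 in A375, with ratios of 0.45 (0.42 to 0.48) and 0.22 (0.19 to 0.25). SEC61B, the small subunit of the channel, had 1863 and 2235 counts in SK-MEL-28 cells and 1757 and 2357 in A375, with ratios of 0.23 and 0.21.

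Genes with and without the promoter elements overlapped in their ratios. The 11 genes with an ERSE or ERSE-II had a median ratio of 0.13 in SK-MEL-28 cells and 0.11 in A375, and the 18 genes whose windows hold neither had 0.06 and 0.09. Among the 11, the ratio in SK-MEL-28 ran from -0.01 (HSP90B1, with 2 ERSE sites) to 0.54 (HERPUD1, with 1 ERSE-II), and in A375 from -0.03 (CANX) to 0.53 (ERO1B). The 3 genes with an ERSE-II, SDF2L1, HERPUD1 and HYOU1, were at 0.50, 0.54 and 0.01 in SK-MEL-28 and at 0.17, 0.09 and 0.17 in A375. DNAJC3 and SEC61A1, which were among the highest, hold neither element in the windows searched, nor does DNAJB9, the lowest. Genes outside the set with either element had medians of 0.11 over 19 genes in SK-MEL-28 and 0.04 over 18 in A375.

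The ratios of the 2 lines, which share no library, can be set side by side across genes. Over the 32 genes Pearson's r was 0.53 and Spearman's rho was 0.55, against 0.43 and 0.42 over 10878 genes with at least 100 counts in each line. Genes are not independent replicates, and the points share each line's control library, so these values are descriptions. For 19 of the 32 genes the 95% counting interval of the difference between the 2 ratios left 0, with the higher ratio in SK-MEL-28 for 9 and in A375 for 10. The share over all genes was not computed, and high counts make these intervals narrow, so this count does not set these genes apart. The differences in favour of SK-MEL-28 were led by HERPUD1, 0.45 (0.31 to 0.59), and XBP1, 0.43 (0.32 to 0.54), and those in favour of A375 by ERO1B, -0.40 (-0.73 to -0.07). With 1 library per condition, a difference between the lines in their response was not tested beyond counting error.

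The test that the design allows uses the lines as 2 pairs. In edgeR's quasi-likelihood fit of treatment with the cell line as a block, over 16258 genes and with 1 residual degree of freedom per gene, 0 of the 32 genes passed an adjusted p of 0.05 in either direction. Of all genes 0.08% were called higher and 0.148% lower, which are 13 and 24 genes, so few genes of any kind passed. At an unadjusted p under 0.05 there were 9 of these genes on the higher side (HSPA5, DNAJC3, SDF2L1, PDIA3, P4HB, HERPUD1, SEC61A1, SEC61B and SEC24D) and 1, DNAJB9, on the lower side, where all genes gave 1225 and 1149. The lowest adjusted p values were those of SEC24D, 0.113 in edgeR for a log2 fold change of 0.54 ± 0.10 (SE), and DNAJC3, 0.118 for 0.47 ± 0.09. With DESeq2 and the same model terms, where p was adjusted over the 8805 genes that its filter on low counts kept, these 2 genes passed, with adjusted p of 0.0226 for SEC24D and 0.0230 for DNAJC3. Among those genes DESeq2 called 144 higher and 158 lower. The direction was the same in both lines for each of the 2. For HSPA5 the edgeR log2 fold change was 0.27 ± 0.07 with an adjusted p of 0.185, for SEC61A1 0.34 ± 0.09 with 0.155, and for DNAJB9 -0.34 ± 0.12 with 0.276. For HSP90B1 the 95% interval of the fold change ran from -0.16 to 0.21 and for CANX from -0.15 to 0.19.

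The second question is how the lines differ in these genes, with the treatment as a term in the same fit and 2 libraries per line. No condition had replicate cultures. The spread in the fit is how far the 2 lines disagree in their ratios of siLINC00622 over siNC, pooled in part over genes. The p values therefore do not measure the spread between cultures of a line. Against SK-MEL-28, 20 of the 32 genes were lower in A375 and 4 were higher at an adjusted p of 0.05. That is 62.5% lower and 12.5% higher, where 33.8% of all genes were called lower and 35.1% higher. The median log2 fold change of A375 over SK-MEL-28 was -0.30 over these genes and 0.03 over all genes tested. The split rests in part on the scaling. With library totals in place of TMM all genes shifted by 0.17 towards A375, 12 of the 32 genes were lower and 5 higher, and the median of the 32 genes was -0.13 against 0.20 for all genes. Of all 16258 genes, 4602 were called lower and 6738 higher with library totals, against 5494 and 5699 with TMM.

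Lower in A375 by the widest margins were the co-chaperones SDF2L1 and DNAJC10, the degradation adaptor SEL1L, XBP1, CRELD2 and the sensor EIF2AK3. SDF2L1, with FPKM of 44.9 and 63.1 in SK-MEL-28 against 18.6 and 20.8 in A375, had the largest of these differences, a log2 fold change of -1.60 ± 0.12 (SE) with an edgeR adjusted p of 4.17e-05. No A375 library reached a SK-MEL-28 library for this gene. SEL1L was at -1.37 ± 0.09 (adjusted p by edgeR 2.61e-05), CRELD2 at -1.22 ± 0.10 and DNAJC10 at -1.11 ± 0.09. XBP1 had FPKM of 33.7 and 46.2 in SK-MEL-28 against 18.6 and 19.0 in A375, a log2 fold change of -1.23 ± 0.12 with an edgeR adjusted p of 0.00015. Both kinase sensors were lower in A375, EIF2AK3 at -1.16 ± 0.12 and ERN1 at -0.70 ± 0.15, whereas ATF6 was at 0.07 ± 0.10 with an adjusted p by edgeR of 0.532. CANX was at -0.97 ± 0.07, DNAJB9 at -0.97 ± 0.12, DNAJB11 at -0.89 ± 0.10, SEC24D at -0.87 ± 0.10 and PDIA4 at -0.84 ± 0.08. These 12 genes were lower in A375 under the scaling by library totals too.

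A further 8 genes were lower in A375 by smaller margins. HSPA5 was at -0.31 ± 0.07 (edgeR adjusted p 0.009), HSP90B1 at -0.29 ± 0.08 (0.0122 by edgeR), and PDIA3, PDIA6, P4HB and CALR between -0.39 and -0.23. EDEM2 and DERL1, at -0.28 and -0.29, had adjusted p of 0.0473 and 0.0453 by edgeR. None of these 8 passed with library totals, where their log2 fold changes lay between -0.22 and -0.06.

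ERO1B, HYOU1, EDEM1 and EDEM3 were higher in A375. ERO1B had FPKM of 0.929 and 1.01 in SK-MEL-28 against 2.76 and 3.97 in A375, a log2 fold change of 1.61 ± 0.16 with an edgeR adjusted p of 0.000162. HYOU1 had FPKM of 22.9 and 22.8 in SK-MEL-28 against 47.1 and 52.5 in A375, a log2 fold change of 0.96 ± 0.09 with an edgeR adjusted p of 0.000104. EDEM1 was at 0.88 ± 0.09 and EDEM3 at 0.36 ± 0.10. The 3 EDEM genes therefore did not share a direction, with EDEM2 lower in A375. For these 4 genes the libraries of the lines did not overlap in FPKM, and the direction held under every scaling tried. Of the other genes, DNAJC3, MANF, HERPUD1, DERL2 and SEC61A1 were between -0.14 and 0.04, and SYVN1 and SEC61B at 0.12 and -0.17, with intervals that include 0.

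**Figure D4:**
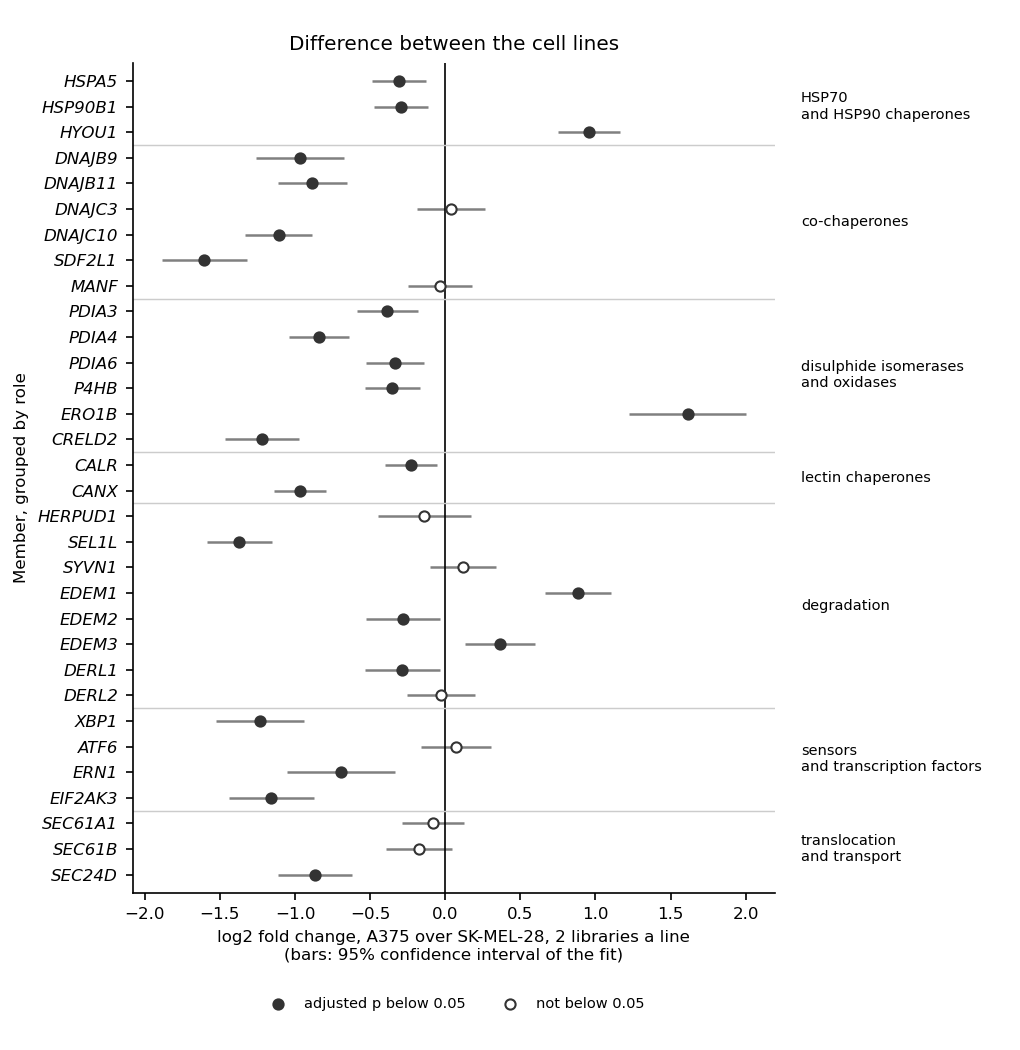
Log2 fold change of A375 over SK-MEL-28 on the x axis for each gene with its 95% confidence interval from the fit over 4 libraries (filled, edgeR adjusted p below 0.05; open, not below). The points of 20 filled genes lie left of 0, from SDF2L1 at -1.60 to CALR at -0.23, and 4 lie right of it, led by ERO1B at 1.61.

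Other genes of the secretory pathway and of the unfolded protein response were described by lists written from general knowledge, which hold none of the 32 genes. The 95 listed genes of 7 lists include the 9 of the PERK and ATF4 branch, which are also described by themselves below. Over these 95, the median ratio was 0.14 in SK-MEL-28 cells and 0.08 in A375, close to the 0.09 and 0.10 above. Of these 95, 0 passed the paired test by edgeR, 19 were higher and 1 lower at an unadjusted p under 0.05, and DESeq2 called MESD, CREB3L2 and OSTC. All 16258 genes gave 1225 higher and 1149 lower at that unadjusted p by edgeR. Against SK-MEL-28, 48 of the 95 were lower in A375 and 19 higher, where 33.8% of all genes were called lower and 35.1% higher. These counts rest on the TMM scaling. The list of other ER folding enzymes had the highest median in A375, 0.22, with 0.21 in SK-MEL-28 over 21 genes. Its top gene in both lines was MESD, a chaperone of lipoprotein receptors, with 1887 and 4757 counts in SK-MEL-28 cells and 1372 and 2631 in A375, and ratios of 1.30 (1.23 to 1.38) and 0.73 (0.64 to 0.82). It was the 1 listed gene beyond 1.5-fold in both lines, and its edgeR adjusted p in the paired fit was 0.0597. The other coat genes of COPII, the machinery to which SEC24D belongs, had medians of 0.25 and 0.12 over 10 genes, and the oligosaccharyltransferase genes 0.07 and 0.12 over 10. In the oligosaccharyltransferase list the catalytic subunit STT3B was the lowest in both lines, at -0.77 and -0.25, and OSTC the highest, at 0.74 and 0.31. CREB3L2, an ER-bound transcription factor that is freed by cleavage as ATF6 is, had the highest ratio among the other regulators, 0.58 in each line. The other lists of the ER, translocon and signal peptidase, degradation, and regulators of the response, had medians between 0.03 and 0.15.

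The PERK and ATF4 branch and the heat shock genes outside the ER took different values in the 2 lines. The 9 genes of the PERK and ATF4 branch had a median of 0.27 for SK-MEL-28 cells and -0.12 in A375. ATF3, a transcription factor of that branch, was highest in SK-MEL-28 with 116 and 189 counts, a ratio of 0.66 (0.33 to 1.02), and CHAC1, a glutathione-degrading enzyme, was lowest in A375 with 373 and 295 counts, a ratio of -0.54 (-0.77 to -0.32). The 12 cytosolic heat shock genes had medians of 0.11 and -0.14. HSPA1A and HSPA1B, near-identical copies between which reads cannot be placed with certainty, were at 0.60 and 0.56 in SK-MEL-28 and at -0.28 and -0.30 in A375. The 10 mitochondrial chaperones and proteases had medians of 0.06 and -0.04, with HSPD1 lowest in both lines at -0.48 and -0.40. The 9 genes of the PERK and ATF4 branch are counted both in the 95 above and in the 31 genes of these 3 lists. Of these 31, 0 passed the paired test by edgeR, 2 were higher and 1 lower at an unadjusted p under 0.05, and DESeq2 called HSPD1. Among all 16258 genes, 1225 were higher and 1149 lower at that unadjusted p by edgeR. The difference between the lines in each list was not tested.

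**Figure D5:**
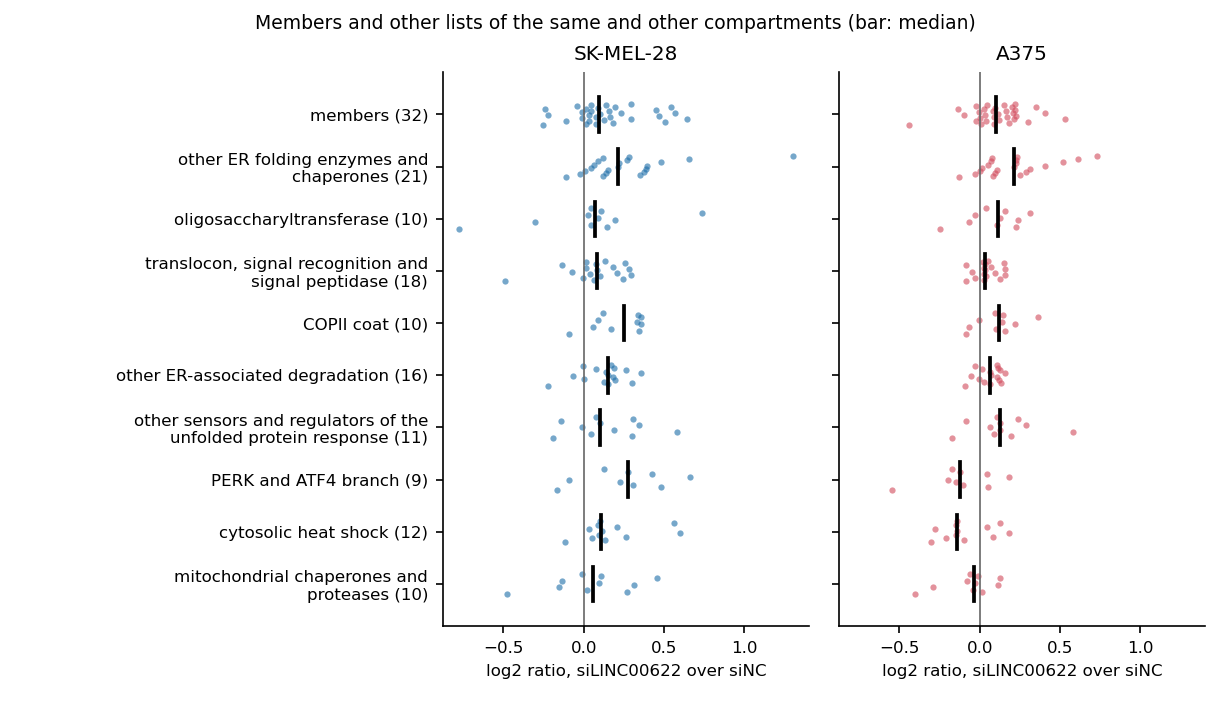
Log2 ratio of siLINC00622 over siNC on the x axis in SK-MEL-28 (left) and A375 (right), 1 point per gene and a black bar at the median, for the 32 genes (top) and 9 other lists with their number of listed genes. The medians of the 32 genes are 0.09 and 0.10, and those of the PERK and ATF4 branch and of cytosolic heat shock lie right of 0 in SK-MEL-28 and left of 0 in A375.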

How the data were processed

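RNA-Seq of 4 libraries was analysed, grouped by the cell line and treatment in their labels. Counts were deposited by the authors as unnormalized whole numbers. The FPKM and CPM values that the authors deposited rescale those counts by the library total and, for FPKM, also by a gene length, and the 17755 lengths they imply were whole within 0.001 bases. TPM values, also deposited by the authors, were not used. The submitters' processing notes name hg19, HISAT2, HISAT, TopHat2 and Bowtie2. The counter, its strand setting and versions are not given in the sources used here, so reads of overlapping antisense genes cannot be told apart from those of a listed gene.

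Log2 ratios used edgeR 4.0.16 TMM factors within a line (R 4.3.3) and a minimum of 10 counts in either library of the line. The paired fit and the comparison of the lines used edgeR's quasi-likelihood test after filterByExpr, with Benjamini-Hochberg adjustment over 16258 genes, and the cell line is the pairing. DESeq2 1.42.0, other scalings, filters and prior counts were alternatives. Reads carry no molecular identifiers. The genes and lists were chosen with earlier results of these data known. By rule, values in every library were given for genes with the highest and lowest ratios, those beyond 1.5-fold or changing direction, and HSPA5, HSP90B1, XBP1, ATF6, ERN1 and EIF2AK3, and others were added after their values were seen. Other pathway genes are the highest or lowest of a list, or over 1.5-fold in both lines. Scripts were tested on simulated data with Python 3.11.15.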

Additional observations from a re-analysis of the deposited data

Results flagged for a closer look

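In 2 genes the counting intervals left 0 in opposite directions in the 2 lines. PDIA4 was at -0.0391 in SK-MEL-28 and at 0.0852 in A375, and CANX at 0.0427 in SK-MEL-28 and at -0.0252 for A375. With 1 library per condition the difference between the lines was not tested, and all 4 values lie within a fold of 1.2.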

How the results depend on the processing

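With 1 library per condition no ratio has a replicate check, and leaving out 1 library could not be fitted with the block, since 3 libraries leave no residual degree of freedom. Of 320 recalculated ratios (32 genes, 2 lines, 5 other settings), 319 moved by less than their counting interval and 1 did not, that of SEC24D in SK-MEL-28, which was 0.56 and under 1.5-fold with FPKM and a pseudocount of 1. No called direction was turned. Among values with no call, those of HERPUD1, MANF, DERL2 and SEC61A1 went from below to above 0 in the comparison of the lines with library totals (25 genes below 0 with TMM, 21 with library totals). Values near 0 also changed sign between settings for CANX, EIF2AK3 and MANF in the paired fit, and for the ratios of DERL2 and MANF in A375 and HYOU1 in SK-MEL-28. In the paired fit, DESeq2 called 2 of the 32 genes higher (DNAJC3 and SEC24D), where edgeR called 0. Of all genes edgeR called 13 higher and 24 lower, DESeq2 144 and 158 of the 8805 genes with an adjusted p, edgeR without the count filter 57 and 64, and edgeR with library totals or RLE size factors 1 and 0 in each case. Without the cell line as a block 0 of the 32 genes and 0 of all genes passed. In the comparison of the lines, library totals lowered the number of genes lower in A375 from 20 to 12, by the shift of all genes given above. Without the treatment block it was 16, with 4 higher as before, where 5006 of all 16258 genes were called lower and 5131 higher. Under library totals SYVN1 passed as higher in A375 (log2 fold change 0.29). HSPA5 and CALR passed neither without the block nor with library totals, and EDEM2 and DERL1 passed in neither of these nor in DESeq2. Depth limits ERN1, EIF2AK3, DNAJB9 and ERO1B most, whose intervals are the widest.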

Other observations

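GANAB, the catalytic subunit of ER glucosidase II, which trims glycoproteins before they bind calnexin and calreticulin, is in none of the lists and was noted after its values were seen. It had 12550 counts with siNC against 23192 with siLINC00622 in SK-MEL-28 cells, a ratio of 0.85 (0.82 to 0.89), and 12450 and 25098 in A375, a ratio of 0.80 (0.77 to 0.83). Its log2 fold change in the paired fit was 0.84 ± 0.08 (SE), with an edgeR adjusted p of 0.0457, as 1 of 13 genes called higher. That count is for the TMM scaling, and edgeR called fewer genes higher with library totals or RLE size factors, as given above. The lectin chaperones CANX and CALR, which act on the glycoproteins that glucosidase II has trimmed, were between -0.03 and 0.09 in the same libraries.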
